A study of Homo sapiens with 9 samples.

Results

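Cadherins and their partners hold epithelial cells together, and 10 genes of this group were followed in VCaP prostate cancer cells after knockdown of CDO1. They were CDH1, CDH2, CTNNA1, CTNNB1, CTNND1, JUP, EPCAM, ALCAM, VIM and ZEB1, taken by gene symbol as 10 of the 58735 genes of the deposited count table. Of these 10 genes, 8 passed the filter on low counts and were among the 15555 genes tested, while VIM and ZEB1 did not pass it. VCaP is an established cell line that grows with androgen, and all groups were kept in medium with serum and dihydrotestosterone. Cells received siCtrl, the control siRNA (genotype WT in the labels), siCDO1A or siCDO1C (both CDO1 knockdown), with 3 libraries each. CDO1 encodes cysteine dioxygenase, which starts the breakdown of cysteine. Each library carries a batch number equal to its replicate number, and all 9 come from 1 cell line, so that p-values measure the spread between the replicates of a single line.

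E-cadherin (CDH1) joins neighbouring epithelial cells, and its tail is tied to the actin cytoskeleton through beta-catenin or plakoglobin and alpha-catenin. In the process called epithelial to mesenchymal transition (EMT), cells lose E-cadherin, gain N-cadherin (CDH2) and the filament protein vimentin (VIM), and express repressors of CDH1 such as ZEB1. The exchange of E-cadherin for N-cadherin is known as the cadherin switch and has been described in prostate cancer. CDH2 and ALCAM had been singled out by the study from these same libraries, so that their values below describe these samples and are not independent evidence of a direction.

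The total count per library was between 12061295 and 16073698, and 3 counts, taken as the limit that a count of 0 allows, corresponded to 0.187 to 0.249 CPM, counts scaled to a common library size with TMM factors. These limits cover counting error only. CDO1 itself had 14.2, 14.1 and 13.6 CPM in siCtrl cells, 3.28, 2.05 and 2.18 with siCDO1A and 1.09, 2.81 and 1.15 with siCDO1C, without overlap between either siRNA and siCtrl. All 9 markers of prostate luminal cells on a hand-written list were detected in every library, and their summed level was 8250 to 8430 CPM with siCtrl, 9040 to 9400 with siCDO1A and 8320 to 8650 with siCDO1C. Basal keratins KRT5 and KRT6A were at 0 counts in 8 and 9 of 9 libraries, and the endothelial cadherin CDH5 and the fibroblast collagen COL1A2 in all 9. In the libraries of siCtrl, siCDO1A and siCDO1C in turn, 6 fibroblast markers summed to 17.9 to 22.3, 20.2 to 23.1 and 14.7 to 18.0 CPM, mostly from LUM, and 6 neuroendocrine markers 244 to 254, 239 to 267 and 242 to 255 CPM. The 5 basal markers summed to 1.17 to 1.51, 2.31 to 3.48 and 1.37 to 2.73 CPM, mostly from KRT14 (12 to 46 counts per library), and the endothelial (4 markers) and leukocyte (5) sums stayed at or below 2.67 CPM in every library. The luminal sum, mostly from KLK2 (2870 to 3960 CPM over all libraries) and ACP3 (1950 to 2390), was higher with siCDO1A than in the other groups without overlap. It does not describe every luminal marker. With siCDO1A, KRT8 (305.5 to 354 CPM) and KRT18 (178.7 to 193.1) lay below siCtrl (362.2 to 403.3 and 203.8 to 208.5). The other luminal markers are not given by group here. The basal sum was higher with siCDO1A than with siCtrl without overlap. The fibroblast sum was lowest with siCDO1C, where it overlapped siCtrl. The part of these sums and markers in the results below was not tested. Replicate 2 of siCDO1C stood apart from its group: the chi-square of its counts per degree of freedom was 13.2 and 13.1 against the other siCDO1C libraries, which gave 2.65 between themselves, and the pairs within siCtrl and siCDO1A gave 2.48 to 6.18. Results with siCDO1C are therefore also given without this library where a call depends on it. RNA of whole cultures cannot tell fewer cells of a kind from less RNA per cell.

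By these counts the epithelial part of this group was high in the VCaP cells, and its mesenchymal part was low or near 0. In siCtrl cells the levels per length, as mean CPM per kb of gene model ± SD (n = 3), were 132 ± 2.22 for EPCAM, 59.2 ± 2.07 for CTNND1, 50.3 ± 0.986 for CDH1, 48.6 ± 1.78 for CTNNA1, 44.3 ± 2.51 for JUP and 33.4 ± 0.85 for CTNNB1. ALCAM followed at 2.53 ± 0.0963 CPM per kb and CDH2 at 1.55 ± 0.308. The siCtrl libraries of CDH1 (49.2 to 50.9 CPM per kb) overlapped those of CTNNA1 (47.2 to 50.6), and no other neighbours in this order overlapped. The order within the catenins depended on the length used. Per kb of the canonical annotated transcript, CTNNA1 had 114, CTNNB1 109, CTNND1 78.1, CDH1 64.6 and JUP 62.4 CPM, while EPCAM stayed the highest at 216 and ALCAM (3.86) and CDH2 (1.90) the lowest of the 8 genes. With these lengths CTNNA1 overlapped CTNNB1 and CDH1 overlapped JUP. VIM had 0 counts in all siCtrl libraries, 0, 3 and 1 with siCDO1A and 3, 0 and 0 with siCDO1C. ZEB1 had 0, 1 and 2 counts with siCtrl and 0 in all 6 libraries of the CDO1 siRNAs. No fold can be given for these 2 genes, because every library was at or under 3 counts.

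**Figure D1:**
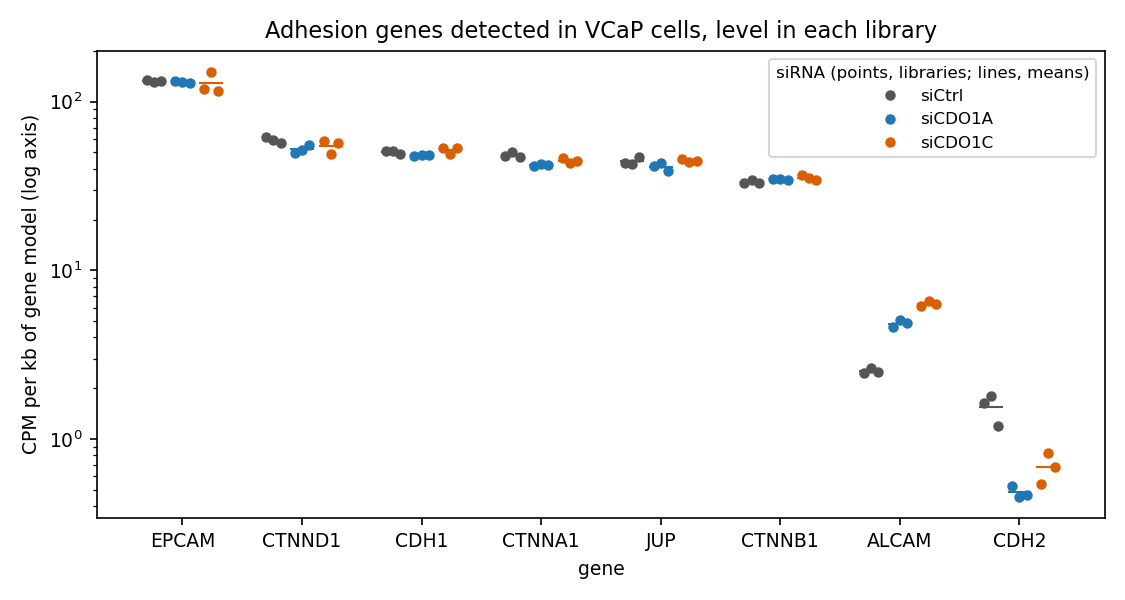
Level of the 8 detected genes in each library, as CPM per kb of gene model on a log axis, with libraries as points and group means as lines. The 6 genes from EPCAM to CTNNB1 lie between 32.8 and 150 CPM per kb in all libraries, ALCAM between 2.46 and 6.59 and CDH2 between 0.455 and 1.80.

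With siCDO1A, 4 of the 8 tested genes passed an adjusted p of 0.05 in the quasi-likelihood test of edgeR, 1 higher (ALCAM) and 3 lower (CDH2, CTNNA1 and CTNND1). Among all 15555 genes tested, 14.8% passed in this comparison, 7.37% higher and 7.48% lower. This test used no pairing. With the batch number as a block CTNNA1 and CTNND1 did not pass, and fewer of all genes did. With siCDO1C, 2 of the 8 passed, ALCAM higher and CDH2 lower, against 4.77% of all genes (2.27% higher and 2.5% lower). Without siCDO1C replicate 2, 3 of the 8 passed, EPCAM being the added gene, while the number of all genes past the threshold went from 742 to 2068. Both siRNAs gave a call in the same direction for CDH2 and ALCAM, 2 of 8 genes, and for 3.62% of all genes, 1.9% higher and 1.72% lower. The study had singled out CDH2 and ALCAM from these same libraries. Counts that include them are thus not independent of that choice and cannot be weighed against the shares of all genes. Apart from them, only CTNNA1 and CTNND1 passed with siCDO1A, and no other gene of the 8 passed with siCDO1C when all libraries were used. The median log2 fold change of the 8 genes was -0.09 with siCDO1A and -0.03 with siCDO1C, and that of all genes tested was 0.01 and 0.00. Both comparisons use the same siCtrl libraries. Levels in the 3 libraries of a group did not overlap with siCtrl in 6 of 8 genes with siCDO1A (2 above and 4 below) and in 3 of 8 with siCDO1C (1 above and 2 below). Among all genes these shares were 30.6% with siCDO1A (15.2% above, 15.4% below) and 24.2% with siCDO1C (12.1% above, 12% below).

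**Figure D2:**
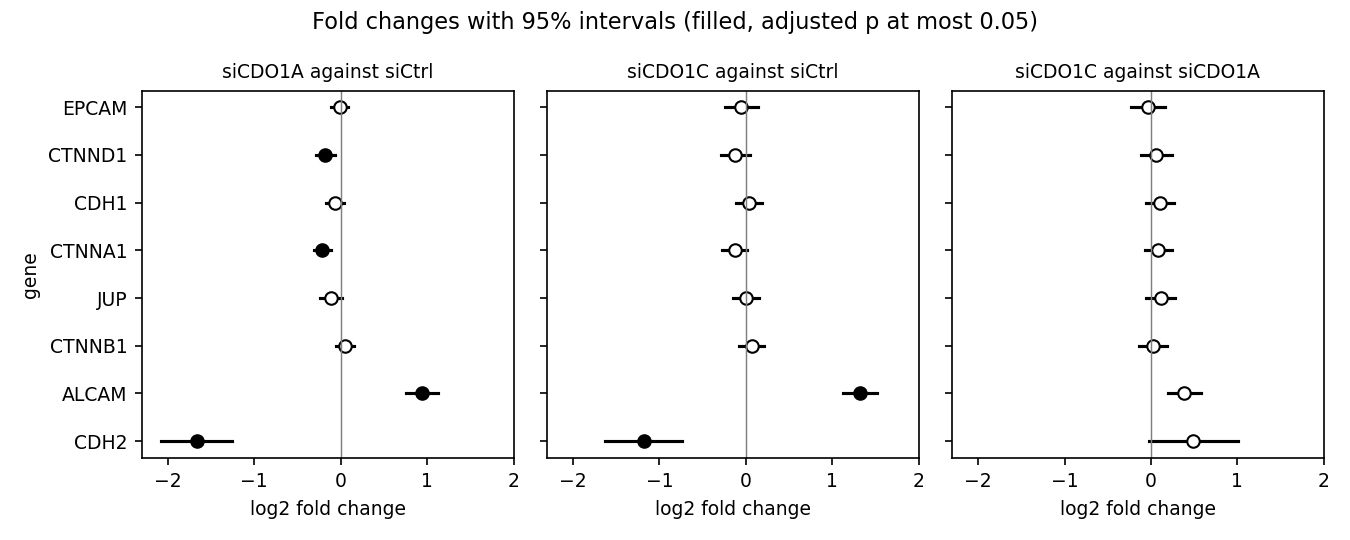
Log2 fold changes of the 8 tested genes with 95% intervals in the 3 comparisons, with filled points for an adjusted p of at most 0.05. CDH2 lies at -1.67 and -1.18 and ALCAM at 0.94 and 1.32 against siCtrl, and the other 6 genes lie between -0.21 and 0.07.

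CDH2 (ENSG00000170558, GRCh38 chromosome 18, 27950966 to 28177446, minus strand) encodes N-cadherin, the cadherin of neural and mesenchymal cells that is gained in EMT. Its counts were 104, 112 and 96 in siCtrl cells, 32, 33 and 35 with siCDO1A and 39, 54 and 41 with siCDO1C. In CPM these were 8.09, 8.90 and 5.95, then 2.62, 2.25 and 2.31, then 2.67, 4.10 and 3.38. All 6 libraries of the CDO1 siRNAs lay below the lowest siCtrl library, and the siCDO1C libraries lay above all siCDO1A libraries. CDH2 fell by 1.67 on the log2 scale with siCDO1A (SE 0.198, adjusted p = 7.33e-06), to 0.315 of the siCtrl level. With siCDO1C it fell by 1.18 (SE 0.209, adjusted p = 0.00409), to 0.442 of that level. Within the batch numbers 1, 2 and 3 the log2 ratios to siCtrl were -1.63, -1.98 and -1.37 with siCDO1A and -1.60, -1.12 and -0.82 with siCDO1C. The direct difference, siCDO1C against siCDO1A, was 0.49 with a 95% interval from -0.02 to 1.00 (adjusted p = 0.678), which does not show that the siRNAs acted alike.

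CDH1 (ENSG00000039068, chromosome 16, 68737225 to 68835548, plus strand) encodes E-cadherin. It had 314, 315 and 304 CPM in siCtrl cells, 293, 299 and 297 with siCDO1A and 330, 300 and 329 with siCDO1C. The siCDO1A libraries were all below and close to the siCtrl libraries, and those of siCDO1C overlapped siCtrl, with replicate 2 the lowest of them. Neither difference passed the test: the log2 fold change was -0.07 with siCDO1A (95% interval -0.17 to 0.03, adjusted p = 0.395) and 0.03 with siCDO1C (-0.12 to 0.18, adjusted p = 0.856). Both intervals lay nearer to 0 than those of CDH2, which ran from -2.08 to -1.25 with siCDO1A and from -1.62 to -0.73 with siCDO1C.

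**Figure D3:**
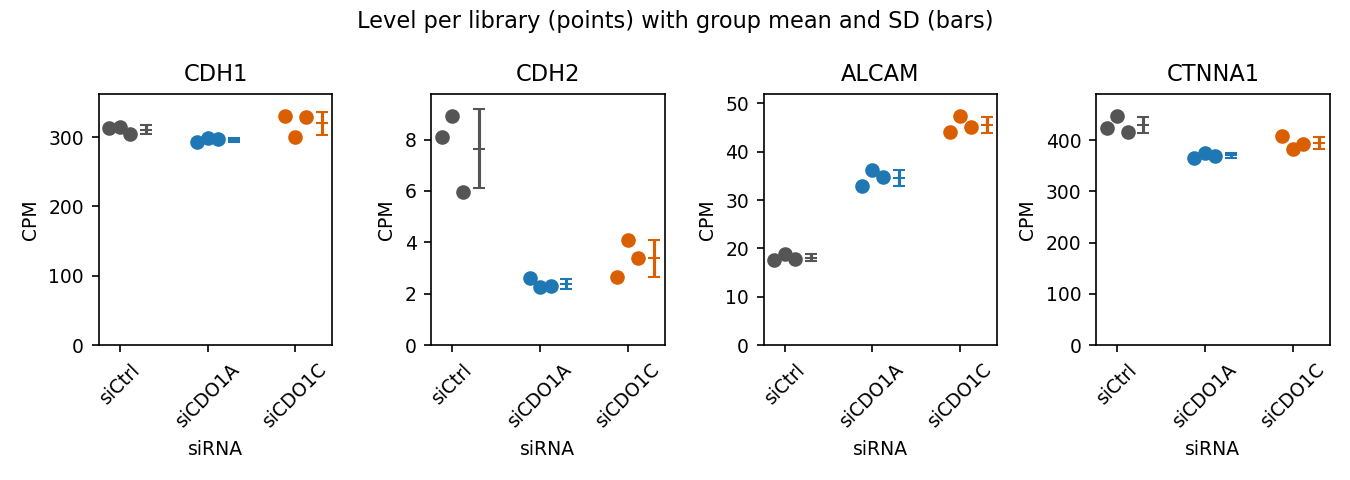
CPM of CDH1, CDH2, ALCAM and CTNNA1 by siRNA, with libraries as points and the group mean with SD (n = 3) as bars, each axis starting at 0. CDH2 was at 5.95 to 8.90 CPM in siCtrl cells and at 2.25 to 4.10 in the other libraries, ALCAM at 17.7 to 18.9 against 32.9 to 47.3, while CDH1 stayed between 293 and 330.

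E-cadherin RNA exceeded N-cadherin RNA in every library. The ratio of CDH1 to CDH2 per kb was 31.1, 28.3 and 40.9 in siCtrl cells (mean 33.4 ± 6.6, SD), 89.5, 106 and 103 with siCDO1A (99.5 ± 8.83) and 99.1, 58.7 and 78.1 with siCDO1C (78.6 ± 20.2). Both siRNA groups lay above siCtrl without overlap, and siCDO1A and siCDO1C overlapped each other. Of the 23 genes of the table with a CDH symbol, 10 were tested. CDH1 made up 78.4% of their summed level per kb in siCtrl cells, 80.3% with siCDO1A and 82.0% with siCDO1C. The share of CDH2 was 2.40%, 0.81% and 1.09%. By the mean over all libraries, CDH26, CDH24, CDH7 and CDH3 lay between CDH1 and CDH2, at 4.24, 2.45, 1.91 and 1.23 CPM per kb against 50.0 for CDH1 and 0.904 for CDH2. In siCtrl cells alone CDH3 lay below CDH2, at 1.96% against 2.40% of the summed level, and their libraries overlapped (1.15 to 1.42 CPM per kb for CDH3 and 1.20 to 1.80 for CDH2). CDH11, the mesenchymal cadherin often measured with CDH2, had no count in any library.

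**Figure D4:**
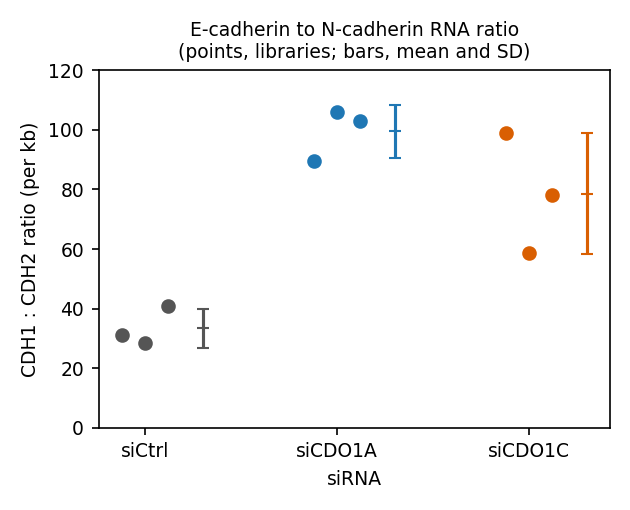
Ratio of CDH1 to CDH2 RNA per kb of gene model in each library (points) with the group mean and SD (bars, n = 3). The siCtrl libraries lie between 28.3 and 40.9, those of siCDO1A between 89.5 and 106 and those of siCDO1C between 58.7 and 99.1.

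Among 23 further tested members of the cadherin superfamily (of 45 on a hand-written list), 4 were higher and 5 lower with siCDO1A, 39.1% against the 14.8% of all genes. The 4 higher were CDH23, CDH24, CDHR1 and CLSTN3, and the 5 lower were CDH7, CDH13, CDH26, CELSR3 and CLSTN2. With the batch number as a block, 4 of the 23 passed with siCDO1A, and CDH23, CDH24, CDH26, CELSR3 and CLSTN3 did not. With siCDO1C none of the 23 passed in edgeR, 6 had an unadjusted p under 0.05, 1 passed in DESeq2 and 5 passed in edgeR without siCDO1C replicate 2. CDH13, the truncated cadherin anchored in the membrane by a lipid, fell by 1.11 on the log2 scale with siCDO1A (SE 0.205, adjusted p = 0.000847), from 5.70 ± 0.782 to 2.61 ± 0.587 CPM (SD, n = 3). With siCDO1C its log2 fold change was -0.68 (adjusted p = 0.14), at 3.61 ± 1.51 CPM. CDH23, a cadherin of the tip links of hair cells, rose by 1.21 with siCDO1A (SE 0.4, adjusted p = 0.0459), at no more than 23 counts in any library. The CDH23 call was lost with the block (adjusted p = 0.0816), with no filter on low counts (0.0597), in 1 fit of all 9 libraries (0.0576) and without any of siCtrl replicates 1 to 3 or siCDO1A replicates 1 and 2 (0.0626 to 0.217).

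The catenins form a complex with the tail of cadherins. CTNNA1 (ENSG00000044115, chromosome 5, 138610967 to 138935034), which encodes alpha-catenin, the actin-binding link, had 423, 446 and 417 CPM in siCtrl cells, 365, 375 and 370 with siCDO1A and 407, 383 and 392 with siCDO1C. Both siRNA groups lay below siCtrl without overlap. With siCDO1A CTNNA1 fell by 0.21 on the log2 scale (SE 0.0499, adjusted p = 0.00656), to 0.864 of the siCtrl level. This call was lost with the batch number as a block (adjusted p = 0.0527) and without siCtrl replicate 2 (adjusted p = 0.0679). Within batch numbers 1, 2 and 3 the log2 ratios were -0.21, -0.25 and -0.17. With siCDO1C the log2 fold change was -0.13 (95% interval -0.27 to 0.02, adjusted p = 0.349).

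CTNND1 (ENSG00000198561, chromosome 11, 57753243 to 57819546) encodes p120-catenin, which binds the part of the cadherin tail next to the membrane and keeps cadherins at the surface. It had 540, 519 and 504 CPM with siCtrl, 435, 457 and 486 with siCDO1A and 511, 431 and 502 with siCDO1C. The siCDO1A libraries lay below siCtrl, and the siCDO1C libraries overlapped siCtrl, with replicate 2, the library that stood apart, the lowest of the 9. CTNND1 fell by 0.18 on the log2 scale with siCDO1A (SE 0.0529, adjusted p = 0.0249). The call was lost with the batch number as a block (adjusted p = 0.113), in 1 fit of all 9 libraries (0.147) and without siCtrl replicate 1 (0.149), siCtrl replicate 2 (0.0894), siCDO1A replicate 1 (0.155) or siCDO1A replicate 2 (0.0911). With siCDO1C the log2 fold change was -0.12 (-0.29 to 0.05, adjusted p = 0.459).

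CTNNB1 (ENSG00000168036, chromosome 3, 41194741 to 41260096) encodes beta-catenin, which both binds cadherins and acts with TCF factors in Wnt signalling. It had 391, 410 and 395 CPM with siCtrl, 413, 416 and 411 with siCDO1A and 436, 419 and 407 with siCDO1C. The siCDO1A libraries were just above the siCtrl libraries, and neither siRNA passed the test, with log2 fold changes of 0.05 (-0.05 to 0.15, adjusted p = 0.532) and 0.07 (-0.07 to 0.22, adjusted p = 0.642). JUP (ENSG00000173801, chromosome 17, 41754604 to 41786931) encodes plakoglobin, the close relative of beta-catenin that also serves desmosomes. It had 213, 210 and 233 CPM with siCtrl, 204, 213 and 191 with siCDO1A and 226, 216 and 218 with siCDO1C. Its groups overlapped siCtrl, and the log2 fold changes were -0.11 (-0.23 to 0.01, adjusted p = 0.221) and 0.00 (-0.15 to 0.15, adjusted p = 0.999).

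Ratios within the complex followed from these values. Per kb, CTNNA1 to CDH1 was 0.944 to 0.992 in siCtrl cells, 0.872 to 0.88 with siCDO1A and 0.834 to 0.893 with siCDO1C, both below siCtrl without overlap. CTNND1 to CTNNB1 was 1.72 to 1.87, 1.43 to 1.61 and 1.40 to 1.67, again below siCtrl with both siRNAs, as was CTNND1 to CDH1 at 1.16 to 1.21, 1.04 to 1.15 and 1.01 to 1.09. The ratios with CTNNB1 on top went the other way with siCDO1A. CTNNB1 to CDH1 was 0.646 to 0.675 with siCtrl and 0.717 to 0.731 with siCDO1A. CTNNB1 to JUP was 0.702 to 0.809 and 0.811 to 0.893. Both lay above siCtrl without overlap, CTNNB1 to JUP only narrowly (0.8105 as the lowest siCDO1A library, 0.8085 as the highest of siCtrl). With siCDO1C these ratios overlapped siCtrl, at 0.641 to 0.722 and 0.773 to 0.805. At 3 libraries per group an exact test by permutation has 0.1 as its smallest two-sided p, so that these ratios are given as descriptions. They share genes with each other, and how often ratios of other genes separate was not counted. Of single genes, 30.6% did not overlap siCtrl with siCDO1A and 24.2% with siCDO1C.

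EPCAM (ENSG00000119888, chromosome 2, 47345158 to 47387601) encodes an epithelial adhesion molecule widely used as a carcinoma marker. It had 340, 328 and 332 CPM with siCtrl, 334, 330 and 327 with siCDO1A and 299, 378 and 292 with siCDO1C. With siCDO1A the groups overlapped, and the log2 fold change was -0.01 (-0.12 to 0.09, adjusted p = 0.893). With siCDO1C replicates 1 and 3 were below every other library and replicate 2 above every other library. The log2 fold change was -0.05 (-0.24 to 0.14, adjusted p = 0.811) with all 3 siCDO1C libraries and -0.18 (adjusted p = 0.0126) without replicate 2.

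ALCAM (ENSG00000170017, chromosome 3, 105366909 to 105576900, plus strand) encodes an immunoglobulin-type adhesion molecule that binds itself on neighbouring cells and the T cell receptor CD6. An earlier analysis of these libraries had noticed the letters GCAGTACA in the 3′UTRs of genes higher with both siRNAs, and the GENCODE annotation of GRCh37 was searched for them on the transcript strand only, so that their presence in ALCAM is a description and not a site. They stood at position 1104 of the ALCAM 3′UTR in 3 of 4 transcripts with an annotated 3′UTR. The exon was read only for the first of these transcripts by name, where it was exon 16 of 16. None of the other 9 genes held them in any annotated 3′UTR, and the stretch is therefore shown. ALCAM is itself called higher with both siRNAs and none of the other 9 is. The contrast with them is thus not independent of how the letters were found. Among 12974 tested genes with an annotated 3′UTR, 277 (2.14%) held these letters. The stretch of the plus strand, GRCh37 chr3:105294388-105294417, is printed with the searched letters in capitals:
ALCAM 3′UTR: taatttatcaaGCAGTACAtgaaagtgtaa

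ALCAM had 17.7, 18.9 and 17.8 CPM in siCtrl cells, 32.9, 36.3 and 34.8 with siCDO1A and 44.1, 47.3 and 45.1 with siCDO1C, from 227 to 645 counts per library. The 3 groups did not overlap, with siCtrl lowest and siCDO1C highest, and replicate 2 of siCDO1C was the highest of all. ALCAM rose by 0.94 on the log2 scale with siCDO1A (SE 0.0885, adjusted p = 3.16e-07), a fold of 1.92. It rose by 1.32 with siCDO1C (SE 0.0902, adjusted p = 1.32e-06), a fold of 2.50. Within batch numbers 1, 2 and 3 the log2 ratios were 0.90, 0.94 and 0.97 with siCDO1A and 1.32, 1.32 and 1.34 with siCDO1C.

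In the direct comparison of siCDO1C with siCDO1A none of the 8 genes passed (0.444% of all genes did, 0.244% higher and 0.199% lower), and 1, ALCAM, had an unadjusted edgeR p under 0.05. ALCAM was higher by 0.39 with siCDO1C (95% interval 0.19 to 0.58, adjusted p = 0.0998). This difference passed with the batch number as a block (adjusted p = 0.0453), with DESeq2 (0.0366), in 1 edgeR fit of all 9 libraries (0.0267), with no filter on low counts (0.0424) and without siCDO1C replicate 2 (0.0308). In 5 of the 8 genes (CDH1, CDH2, CTNNA1, ALCAM and JUP) the siCDO1C libraries lay above the siCDO1A libraries without overlap, against 6.35% of all genes, and 0 of 8 lay below, against 6.36%, or 12.7% in either direction.

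The study measured CDH2 and ALCAM also by RT-qPCR, whose values are not analysed here, and its primers are printed to show which part of each transcript they read. The ALCAM pair lies in exons 13 and 14 of ALCAM-201 with an amplicon of 127 bases, and the CDH2 pair in exons 13 and 14 of CDH2-201 with 156 bases.
ALCAM forward: tccagaacacgatgaggcagac
ALCAM reverse: gtagacgacaccagcaacaagg
CDH2 forward: caacggggactgcacagatg
CDH2 reverse: tgtttggcctggcgttcttt

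The genes most like CDH2 over the 9 libraries, by the Pearson correlation of log2 CPM, were FYN (0.977), INSIG1 (0.975) and RAB10 (0.972). Those most like ALCAM were F2R (0.989), HMGN4 (0.985) and TDP1 (0.984). The 9 libraries fall into 3 groups, so that this likeness includes the differences between groups and is a description only. A high correlation does not mean a change of like size. Against siCtrl, with siCDO1A and siCDO1C in turn, FYN had log2 fold changes of -0.59 and -0.45, INSIG1 -0.537 and -0.367 and RAB10 -0.0998 and -0.09. F2R had 1.07 and 1.42, HMGN4 0.455 and 0.564 and TDP1 0.16 and 0.235.

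Genes around the adherens junction were taken from 11 hand-written lists of 300 genes in all, of which 219 were tested. Of these, 57 passed with siCDO1A (26.0%, against 14.8% of all genes) and 16 with siCDO1C (7.31%, against 4.77%). In the same direction with both siRNAs, 11 passed (5.02%, against 3.62%), 2 higher and 9 lower. By list the share with siCDO1A ran from 18.2% for epithelial keratins and regulators, near the share of all genes, to 40% for the mesenchymal matrix and cytoskeleton. None of the 81 untested genes had more than 17 counts in any library. With siCDO1A the count was 35 with the batch number as a block and 35 without siCtrl replicate 2, and with siCDO1C it was 49 without siCDO1C replicate 2 and 4 to 8 without any other single library.

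**Figure D5:**
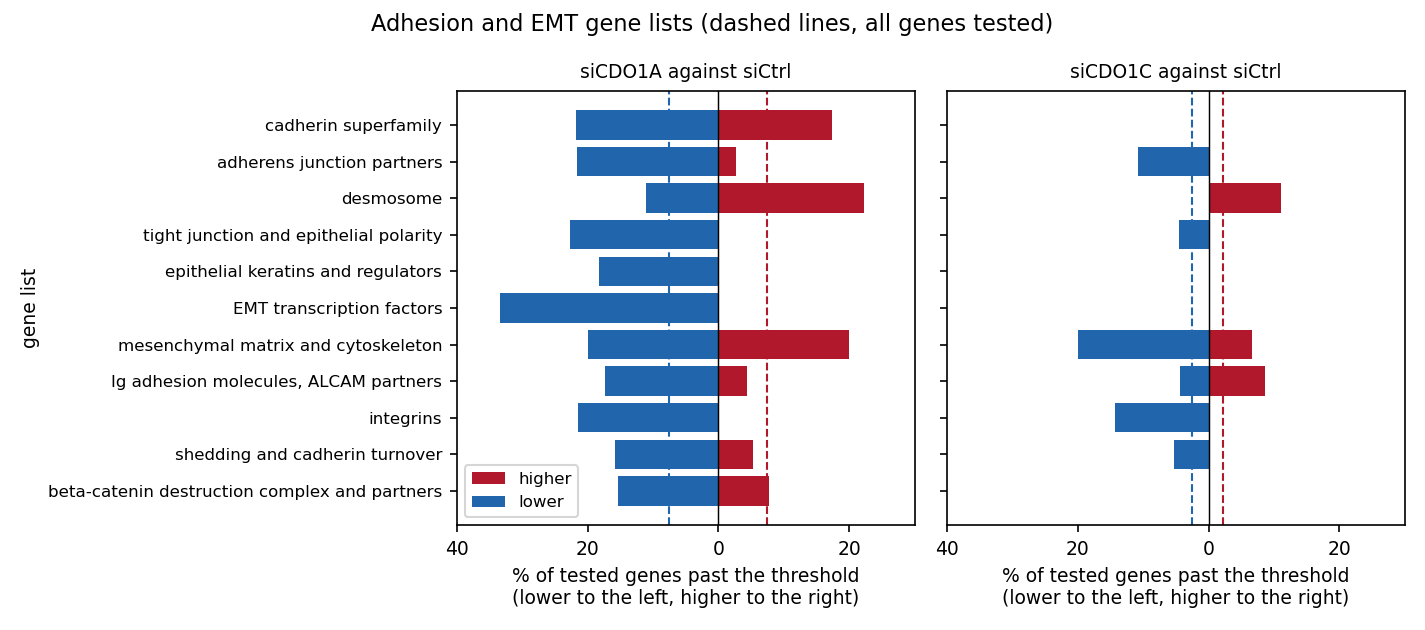
Share of the tested genes of each list that passed an adjusted p of 0.05, higher to the right and lower to the left, with dashed lines for all genes tested. With siCDO1A more genes were lower than higher in 9 of the 11 lists, and with siCDO1C 4 lists had no gene past the threshold.

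Among 37 tested partners of the adherens junction, 1 was higher (ARVCF) and 8 lower with siCDO1A, and 4 were lower with siCDO1C. That was 24.3% with siCDO1A, against 14.8% of all genes, and 10.8% with siCDO1C, against 4.77%. Without siCDO1C replicate 2, 11 of the 37 passed with siCDO1C, and more of all genes did too. AJUBA, a LIM protein that binds alpha-catenin, fell by 0.66 and by 1.04 on the log2 scale (adjusted p = 0.000264 and 0.000203), from 19.1 ± 1.01 CPM to 12.1 ± 0.766 with siCDO1A and 9.35 ± 0.971 with siCDO1C (SD, n = 3). Its groups did not overlap with siCtrl. Its relative WTIP fell by 0.50 and 0.58 (adjusted p = 0.0179 and 0.0466). The WTIP call with siCDO1A was lost without siCtrl replicate 2 or 3 (adjusted p = 0.0846 and 0.0596), and that with siCDO1C without any siCtrl replicate or siCDO1C replicate 3 (0.08 to 0.198). FYN, a Src-family kinase, fell by 0.59 and 0.45 (adjusted p = 0.000579 and 0.0258), from 19.3 ± 0.939 CPM to 12.8 ± 0.3 and 14.1 ± 0.348. The FYN call with siCDO1C was lost without any siCtrl replicate or siCDO1C replicate 1 or 3 (adjusted p = 0.0621 to 0.14). With the block ARVCF and SHROOM3 did not pass with siCDO1A (adjusted p = 0.107 and 0.0692). The fourth gene lower with siCDO1C was EGFR, the EGF receptor.

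Desmosomes and tight junctions are the other junctions of epithelial cells. Of 9 tested desmosome genes, 2 were higher (PKP1 and PKP3) and 1 lower (PERP) with siCDO1A, and 1 was higher with siCDO1C. These calls made up 33.3% and 11.1% of the list, against 14.8% and 4.77% of all genes. When siCDO1C replicate 2 was left out, 5 of the 9 passed with siCDO1C, and more of all genes passed as well. PKP3, a plakophilin of the desmosomal plaque, rose by 0.45 and 0.37 (adjusted p = 3.5e-05 and 0.0079), from 166 ± 9.91 CPM to 227 ± 14.7 and 216 ± 7.13. Its call with siCDO1C was lost without siCtrl replicate 1 or 2 (adjusted p = 0.082 and 0.0887).

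Of 22 tight junction and polarity genes, 5 were lower with siCDO1A (CLDN8, CLDN12, CGNL1, CXADR and PATJ) and 1 with siCDO1C. The share was 22.7% with siCDO1A, against 14.8% of all genes, and 4.55% with siCDO1C, near the 4.77% of all genes. Leaving out siCDO1C replicate 2 gave 2 of the 22 with siCDO1C. CXADR, an adhesion protein of tight junctions, fell by 0.24 and 0.37 (adjusted p = 0.0329 and 0.0191). With siCDO1A its call was lost with the block (adjusted p = 0.0869), in 1 fit of all 9 libraries (0.102) and without siCtrl or siCDO1A replicate 1 or 2 (0.114 to 0.186). PATJ was also lost with the block (0.064). With siCDO1C the CXADR call was lost without siCtrl replicate 1 or 2 or siCDO1C replicate 1 (0.118 to 0.153). The claudin gene CLDN12 was the only gene on the 11 lists past the threshold between the siRNAs, at 68.0 ± 0.846 CPM with siCDO1A against 95.2 ± 12.8 with siCDO1C and 95.2 ± 6.5 with siCtrl.

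Epithelial keratins and regulators of the epithelial programme gave 4 lower of 22 tested with siCDO1A (KRT8, EHF, RAB25 and TMEM30B), 18.2% against 14.8% of all genes. RAB25, an epithelial GTPase of recycling vesicles, fell by 0.56 (adjusted p = 0.00338), from 15.8 ± 0.895 to 10.7 ± 1.48 CPM, and EHF, an epithelial ETS factor, fell by 0.27 (adjusted p = 0.00206). With the block 2 of the 22 passed, and KRT8 and TMEM30B did not (adjusted p = 0.121 and 0.0585). With siCDO1C 0 of the 22 passed in edgeR or in DESeq2, 2 had an unadjusted edgeR p under 0.05, and 3 passed without siCDO1C replicate 2.

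The list of EMT transcription factors held both undetected and well expressed genes. Of 19 on the list, 10 were not tested, with no more than 10 counts in any library. They included SNAI1 (1 to 10 counts), SNAI2 (1 to 6), TWIST1 (0 to 1) and ZEB2 (0 to 3), known for repressing CDH1 or driving EMT. The highest of the tested factors, named after their values were seen, were SOX4 (164 to 194 CPM as means of the 3 groups), SOX9 (118 to 130) and TCF3 (82.8 to 94.8), whose product E2A can repress CDH1, and none of these 3 passed against siCtrl (adjusted p = 0.0625 to 0.607). Of the 9 tested, 3 were lower with siCDO1A, 33.3% against 14.8% of all genes. All 3 were ID genes (ID1, ID2 and ID3), which encode inhibitors of basic helix-loop-helix factors and not repressors of CDH1. ID1 fell by 0.61 (adjusted p = 0.000186) and ID2 by 0.47 (adjusted p = 0.000352). ID1 was at 23.7 ± 0.752 CPM with siCtrl, 15.5 ± 0.988 with siCDO1A and 17.5 ± 3.28 with siCDO1C. With siCDO1C 0 of the 9 passed in edgeR, 2 had an unadjusted p under 0.05, 2 passed in DESeq2 and 3 passed in edgeR without siCDO1C replicate 2.

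Of 33 genes of the mesenchymal matrix and cytoskeleton, 15 were tested. With siCDO1A 3 were higher (COL1A1, COL6A1 and COL6A2) and 3 lower (COL5A2, CALD1 and TPM1), 40% against 14.8% of all genes. With siCDO1C 1 was higher (LOX) and 3 lower (COL5A2, ACTA2 and LUM), 26.7% against 4.77%. Leaving out siCDO1C replicate 2 gave 5 of the 15 with siCDO1C. With the block 4 of the 15 passed with siCDO1A, and COL1A1 and TPM1 did not (adjusted p = 0.063 and 0.0666). DESeq2 also did not call COL1A1 with siCDO1A (0.0618) or LUM with siCDO1C (0.0526), and it gave no adjusted p for ACTA2 with siCDO1C. COL5A2, a fibrillar collagen chain, fell by 1.16 and 1.25 (adjusted p = 3.39e-08 and 4.31e-06), from 50.6 ± 5.36 CPM to 22.6 ± 1.81 and 21.5 ± 1.27. Its highest library with a CDO1 siRNA was at 24.2 CPM and its lowest siCtrl library at 45.5 CPM.

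Of 23 tested immunoglobulin adhesion molecules and ALCAM partners, 1 was higher and 4 lower with siCDO1A, 21.7% against 14.8% of all genes. With siCDO1C 2 were higher (MCAM and NCAM2) and 1 lower, 13% against 4.77%. The count with siCDO1C was 7 of the 23 without siCDO1C replicate 2, while more of all genes passed too. MCAM, a relative of ALCAM, rose by 0.30 and 0.31 (adjusted p = 0.00489 and 0.037). The syndecan gene SDC4 fell by 0.45 and 0.32 (adjusted p = 0.000139 and 0.0315). The siCDO1C calls were lost with the block (adjusted p = 0.0689 for MCAM and 0.0557 for SDC4), and without any siCtrl replicate or siCDO1C replicate 1 or 3 (0.0797 to 0.159 for MCAM and 0.0841 to 0.196 for SDC4).

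Of 14 tested integrin genes, 3 were lower with siCDO1A (ITGAV, ITGB1 and ITGB8) and 2 with siCDO1C. Shares were 21.4% and 14.3%, against 14.8% and 4.77% of all genes. ITGB8, a partner of the alpha-V chain, fell by 0.75 and 0.38 (adjusted p = 1.3e-05 and 0.0343) and ITGB1, the common beta chain, by 0.22 and 0.25 (adjusted p = 0.00973 and 0.0498). With the block ITGAV did not pass with siCDO1A (adjusted p = 0.0595), ITGB1 did not pass with either siRNA (0.0591 and 0.109) and ITGB8 did not with siCDO1C (0.0526), and with RLE factors ITGB1 did not pass with siCDO1C (0.0525). Without any siCtrl replicate or siCDO1C replicate 1 or 3 neither gene passed with siCDO1C (0.0518 to 0.269), and ITGB1 did not pass with siCDO1A without siCtrl or siCDO1A replicate 1 or 2 (0.0529 to 0.0723).

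Proteases and turnover factors of cadherins and ALCAM gave 1 higher (ADAM15) and 3 lower (ADAM10, APH1B and NUMB) of 19 with siCDO1A. That was 21.1%, against 14.8% of all genes. With siCDO1C 1 was lower, 5.26% against 4.77%, and 2 of the 19 passed without siCDO1C replicate 2. APH1B, a subunit of gamma-secretase, which cuts cadherin stubs in the membrane, fell by 0.66 and 0.52 (adjusted p = 3.06e-06 and 0.00234), from 57.6 ± 1.57 CPM to 36.5 ± 0.426 and 40.4 ± 2.86. With the block, 2 of the 19 passed with siCDO1A, and ADAM10 and ADAM15 did not.

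The list of the beta-catenin destruction complex, its nuclear partners and targets held 26 tested genes. With siCDO1A 2 were higher (LEF1 and ZNRF3) and 4 lower (APC, GSK3B, TCF7L2 and CCND1), 23.1% against 14.8% of all genes. TCF7L2, a nuclear partner of beta-catenin, fell by 0.40 (adjusted p = 0.027) and APC, a scaffold of the complex, by 0.35 (adjusted p = 0.0144). With the block only APC of the 26 passed, and TCF7L2 did not (adjusted p = 0.0503), nor in 1 fit of all 9 libraries (0.0543). TCF7L2 was also lost without siCtrl replicate 1 or 2 or siCDO1A replicate 1 or 3 (0.0506 to 0.118), and APC without siCtrl replicate 2 or siCDO1A replicate 1 or 2 (0.0537 to 0.0901). With siCDO1C 0 of the 26 passed in edgeR, 5 had an unadjusted p under 0.05, 1 passed in DESeq2 and 4 passed in edgeR without siCDO1C replicate 2.

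Genes that overlap these loci held few counts. The most were 8 to 37 for ULK4 opposite CTNNB1, 7 to 18 for AC034243.1 opposite CTNNA1 and 8 to 20 for ZEB1-AS1 opposite ZEB1. VIM-AS1, opposite VIM, had 0 to 1. The libraries kept strand, but whether the counting used it is not given in the sources used here. Reads of ZEB1 or VIM and their antisense partners may therefore not have been told apart. A count near 0 may thus not mean that the RNA was absent. CDC42, on the list of adherens junction partners, had only 2 to 8 counts per library, and the cause was not tested.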

How the data were processed

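Poly(A) RNA of VCaP cells was sequenced from strand-specific libraries. The authors counted reads per gene with featureCounts and deposited whole-number counts without normalization for each library, and the submitters' processing notes name CASAVA, HISAT2 2.0.5 and hg38. How the counting treated strand and reads with several matches is not given in the sources used here. In the table, 3 columns match no sample here and were not used.

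Genes were kept with filterByExpr (minimum count 10, 9 libraries), which left 15555 of 58735. Each comparison used its 6 libraries, TMM and edgeR 4.0.16 (quasi-likelihood F test, R 4.3.3), with Benjamini-Hochberg adjustment over all genes tested and a threshold of 0.05. SE is the log2 fold change over the root of F. CPM used the TMM factors of all 9 libraries. Levels per length used the gene model lengths of the table, and canonical transcripts of GENCODE v44lift37 (GRCh37) as an alternative chosen after seeing the data. Gene coordinates are those of GRCh38, and 3′UTR coordinates those of GRCh37. Scripts were tested on simulated data.

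The genes, lists and tests were chosen with earlier results of these data known. The genes named were the 10 chosen by symbol, CDO1, those of each list past the threshold with both siRNAs in the same direction (at most 4), otherwise up to 2 with 1 siRNA, taken here by size of change, and the 3 genes most correlated with CDH2 and with ALCAM. CLDN12 and genes given only by name as past the threshold were named after their values were seen. Alternatives were DESeq2 1.42.0, RLE factors, other filters, 1 fit of all 9 libraries, the batch number as a block and leaving out each library.

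Batch numbers in the labels equal the replicate numbers. The main tests used no pairing, and the batch number entered as a block only in an alternative run. Deviations of same-numbered libraries from their group means correlated between -0.37 and 0.372 across genes, over 0.1 in 2 of 9 pairs. Total counts were 12061295 to 16073698 per library, and low genes such as CDH2 carry more counting error than high ones.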

Additional observations from a re-analysis of the deposited data

Results flagged for a closer look

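CLDN12, which encodes a claudin of tight junctions, differed between the siRNAs in a direct test of siCDO1C against siCDO1A, with a log2 fold change of 0.48 (SE 0.0957, edgeR adjusted p = 0.0291). It was higher in 3 of 3 siCDO1C libraries than in any siCDO1A library, and the call was lost without any siCDO1A replicate or siCDO1C replicate 3 (adjusted p = 0.0553 to 0.249). The cause was not tested.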

How the results depend on the processing

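Of the log2 fold changes of single genes, CDH2 and ALCAM against siCtrl kept direction and call with both siRNAs in every alternative run. Reversed signs occurred only in changes of JUP, EPCAM and CTNNB1 that did not pass. Without single libraries the siCDO1C change of JUP ran from -0.02689 (siCtrl replicate 2) to 0.04688, with -0.012 and -0.01208 without siCtrl replicate 1 and siCDO1C replicate 1, and that of EPCAM from -0.1771 to 0.0118, with 0.007109 and 0.0118 without siCDO1C replicates 1 and 3. Against siCDO1A, CTNNB1 ran from -0.006473 to 0.04337 and EPCAM from -0.1636 to 0.02828, with 0.01475 without siCDO1C replicate 1. Leaving out 1 library moved the number of genes past the threshold to 1292 to 3454 with siCDO1A, 263 to 2068 with siCDO1C and 18 to 447 between the siRNAs, the highest of the last 2 ranges without siCDO1C replicate 2. The number of the 8 genes moved to 2 to 4, 2 to 3 and 0 to 1, and that of listed genes to 35 to 80, 4 to 49 and 0 to 17. With 1 fit of all 9 libraries 1369 genes and 37 listed genes passed with siCDO1A, and 128 genes, 1 of the 8 (ALCAM) and 2 listed genes between the siRNAs. With the replicate number as a block 1358 genes, 2 of the 8 and 35 listed genes passed with siCDO1A, and 121 genes and 1 of the 8 between the siRNAs. Between the siRNAs, DESeq2 gave 104 genes and 1 of the 8, and no filter on low counts gave 147 genes, 1 of the 8 and 4 listed genes. With the block 22 listed genes lost their call with siCDO1A and 4 with siCDO1C, named with their lists. The CDH1 to CDH2 log2 ratio difference stayed at 1.48 to 1.74 with siCDO1A and 1.04 to 1.41 with siCDO1C without any single library. The cause of these shifts was not tested. CDH2, at 32 to 112 counts, and the genes with fewer counts carry counting error besides the spread between replicates, and these were not told apart.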
